A study of Mus musculus with 6 samples.

Results

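The genes described here encode the main chaperone machine of the endoplasmic reticulum (ER): BiP (Hspa5) and GRP94 (Hsp90b1), the HSP70 and HSP90 chaperones of the ER lumen, with the proteins that drive or regulate them. They are the nucleotide exchange factors Hyou1 and Sil1, the J proteins Dnajb9, Dnajb11, Dnajc3 and Dnajc10, and the BiP partners Sdf2l1 and Manf. The 10 genes were chosen by symbol, each from probe sets that the platform annotation assigns to that gene alone, and all 10 were measured, out of 19936 genes on the array. Where a gene had several probe sets, the one with the highest mean over the arrays stood for it. Only Dnajc3 had 2, and these held the same values.

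Transcript levels came from Affymetrix arrays of the colon epithelium of 8-week-old male mice, with 3 arrays labelled wild type (C57BL/6J) and 3 labelled Sel1L-delta-IEC, the enterocyte-specific Sel1L knockout on the same background. The knockout mice carried the Sel1ltm1e(KOMP)Wtsi allele, in which exon 6 of Sel1L lies between loxP sites after the lacZ-neo cassette had been removed with βActin-FLPe, together with the Cre transgene of B6.SJL-Tg(Vil-cre)997Gum/J. The villin-1 promoter of that transgene is active in intestinal epithelial cells, so other cells of the preparation keep Sel1L. The labels do not say whether the wild type mice carried floxed alleles, nor that each array came from a separate mouse, so the p-values given here measure the spread between these arrays. Sel1L is the adaptor of the Hrd1 ubiquitin ligase, which clears misfolded proteins from the ER.

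BiP binds exposed hydrophobic stretches of newly made proteins and releases them as it hydrolyses and exchanges ATP. J proteins bring substrates to BiP and speed hydrolysis, exchange factors reset it, and GRP94 takes over a narrower set of clients, among them integrins and Toll-like receptors. When unfolded proteins accumulate, the sensors IRE1, PERK and ATF6 raise the transcripts of many of these proteins, in part through ER stress response elements in their promoters. The secretory cells of the colon, such as goblet cells, depend on this machine to make mucins.

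Promoters of these genes are shown first, because several carry such elements in the letters themselves. Windows from 250 bases before to 50 bases after the annotated start came from RefSeq (build GRCm38.p6), with 7 of the 10 genes matched and Hyou1, Sil1 and Manf not. The element known as ERSE was searched as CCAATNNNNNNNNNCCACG, its shorter form ERSE-II as ATTGGNCCACG and the core of the UPRE as TGACGTGG, each on both strands. No match of one overlapped a match of another in these 7 windows. The 4 windows with a match follow, read 5′ to 3′ on the strand of the gene, with the matches in capitals. The first lies at chr2:34771840-34772139 (plus strand), the second at chr10:86705395-86705694 (minus strand), the third at chr14:118937682-118937981 (plus strand) and the last at chr16:22857595-22857894 (plus strand).
Hspa5: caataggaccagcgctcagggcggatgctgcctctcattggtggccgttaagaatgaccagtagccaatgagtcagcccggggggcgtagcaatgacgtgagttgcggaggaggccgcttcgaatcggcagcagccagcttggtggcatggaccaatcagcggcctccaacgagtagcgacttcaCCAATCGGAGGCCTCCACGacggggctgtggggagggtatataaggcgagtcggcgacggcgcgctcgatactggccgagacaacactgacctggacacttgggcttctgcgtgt
Hsp90b1: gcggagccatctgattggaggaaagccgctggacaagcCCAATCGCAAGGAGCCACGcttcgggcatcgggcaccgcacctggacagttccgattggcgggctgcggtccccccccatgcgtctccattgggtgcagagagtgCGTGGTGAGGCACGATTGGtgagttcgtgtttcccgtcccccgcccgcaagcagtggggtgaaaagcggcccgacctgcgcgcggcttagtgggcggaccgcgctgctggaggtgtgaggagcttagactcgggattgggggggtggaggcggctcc
Dnajc3: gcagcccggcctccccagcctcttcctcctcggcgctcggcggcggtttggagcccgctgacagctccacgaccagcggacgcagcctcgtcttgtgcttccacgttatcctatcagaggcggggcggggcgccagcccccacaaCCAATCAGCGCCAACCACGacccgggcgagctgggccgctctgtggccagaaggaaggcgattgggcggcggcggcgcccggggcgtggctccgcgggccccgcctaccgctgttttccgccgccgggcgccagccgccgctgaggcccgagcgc
Dnajb11: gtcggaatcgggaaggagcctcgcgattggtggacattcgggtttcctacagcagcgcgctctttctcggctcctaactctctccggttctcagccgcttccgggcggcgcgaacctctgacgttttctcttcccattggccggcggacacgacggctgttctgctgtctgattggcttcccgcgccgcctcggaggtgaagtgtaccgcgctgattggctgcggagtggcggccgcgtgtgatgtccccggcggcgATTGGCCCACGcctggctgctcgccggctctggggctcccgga

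Only exact matches were counted in all windows, so a copy that differs by 1 letter is not among them. The Hspa5 window held 1 exact ERSE, 65 to 47 bases before the start. Hsp90b1 held 2, one on the strand of the gene 212 to 194 bases before the start and one on the opposite strand 107 to 89 bases before it. Dnajc3 held 1, 105 to 87 bases before the start. Dnajb11 held the ERSE-II form, at bases 8 to 18 after the start. The windows of Dnajb9, Dnajc10 and Sdf2l1 held none of the 3 motifs, which says only that these letters are not in the windows searched. Over all 32851 promoters of the table, 0.119% held an ERSE, 0.0365% an ERSE-II and 0.676% a UPRE core.

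Sdf2l1 is shown for comparison, as the gene with the largest change of the 10 and without a match. Capitals mark its 4 CCAAT and 3 CCACG boxes on either strand, which do not have the spacing of an ERSE. The window lies at chr16:17132334-17132633 (minus strand).
Sdf2l1: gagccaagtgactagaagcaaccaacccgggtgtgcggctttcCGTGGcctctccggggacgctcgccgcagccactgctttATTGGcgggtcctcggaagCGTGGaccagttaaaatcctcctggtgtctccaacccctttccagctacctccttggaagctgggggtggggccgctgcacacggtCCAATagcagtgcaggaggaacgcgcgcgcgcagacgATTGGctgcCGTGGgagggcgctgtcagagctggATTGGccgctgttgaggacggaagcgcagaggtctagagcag

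**Figure D1:**
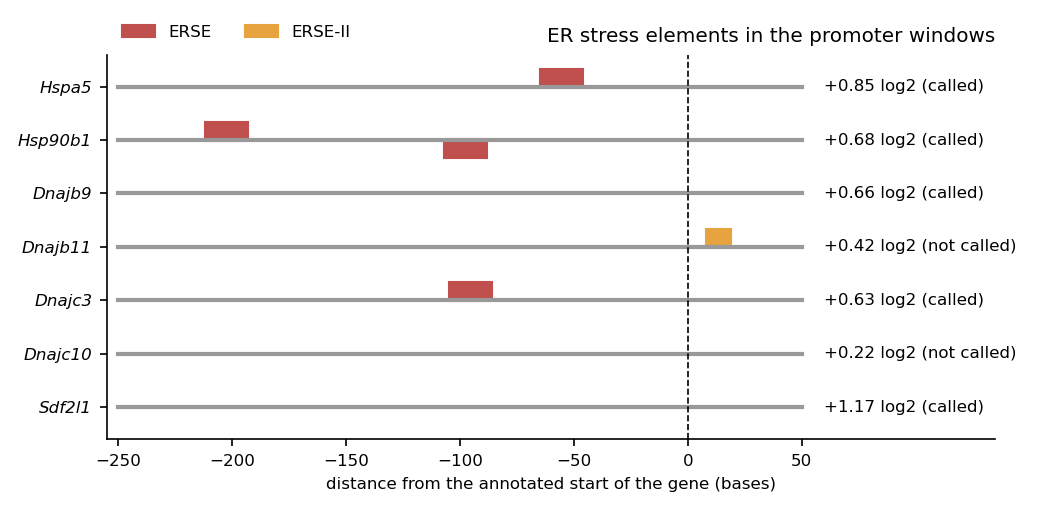
Position of ERSE (red) and ERSE-II (yellow) matches in the promoter windows of the 7 genes matched in RefSeq, in bases from the annotated start (dashed line), with boxes above the line for the strand of the gene and below it for the opposite strand. The change of each gene in the knockout is printed on the right; the 3 genes with an ERSE were called, and of the 3 windows without a match those of Dnajb9 and Sdf2l1 belong to called genes and that of Dnajc10 does not.

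Sel1l itself was lower in the knockout by -0.74 ± 0.11 (SE) on the log2 scale, with limma's adjusted p = 0.018 and an exact permutation p of 0.1, the smallest that 3 arrays against 3 can give. Leaving out wild type array 1 or 2 or knockout array 1 or 3 ended this call (adjusted p 0.055 to 0.087). The probe set was not mapped to exon 6 here. Levels are RMA values on the log2 scale, changes are knockout minus wild type, SE is the moderated standard error of limma, and a gene is called at an adjusted p under 0.05 over all genes. The medians of the 6 arrays lay between 6.32 and 6.36 and every pair of arrays correlated at 0.993 to 0.997, over genes that are not independent of each other. All 8 epithelial markers, such as Epcam, Cdh1 and Krt8, and all 6 goblet cell markers measured lay above the median level of all genes (6.66). None of either list was called by limma. At an unadjusted p under 0.05, which 13.3% of all genes had, stood 3 of the 8 epithelial markers, Epcam (-0.23), Cdh1 (-0.23) and Slc26a3 (-0.36), each with every knockout array below every wild type array, and 1 of the 6 goblet cell markers, Spdef (0.28), with every knockout array above. These 4 were named after their values were seen, and their part in the results was not tested. The mean of the epithelial list was 12.23 to 12.40 on wild type and 12.16 to 12.27 on knockout arrays. Plasma and B cells, of which plasma cells also make much of this chaperone machine, were represented by 7 markers with none above that median, and their mean level was 4.98 to 5.23 on wild type and 4.96 to 5.08 on knockout arrays. Of the markers of macrophages, T cells, fibroblasts, smooth muscle, endothelium and pancreas, 1 of 5 for T cells and 2 of 5 for fibroblasts lay above the median, none of the others did, and none was called by limma or had an unadjusted p under 0.05. In bulk epithelium, fewer cells of a type and less RNA per cell cannot be told apart.

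In the knockout, 7 of the 10 genes rose: Hspa5, Hsp90b1, Hyou1, Dnajb9, Dnajc3, Sdf2l1 and Manf. Over all genes 0.918% were called higher and 1.63% were called in either direction. None of the 10 fell. The changes of all 10 were positive, from 0.22 to 1.17 with a median of 0.67, against a median of 0.019 over all genes, and all 10 had an unadjusted p under 0.05, as had 13.3% of all genes. In 9 of the 10, each knockout array lay above each wild type array, which held for 11.4% of all genes. The calls of Hspa5, Hsp90b1, Hyou1, Dnajc3, Sdf2l1 and Manf held in each of 13 other fits, the 6 that leave out an array included. The fit on the mean of probe sets, also among them, could not alter the values of these genes. Only Dnajc3 had several probe sets, and these were equal. In a fit that took the SD of each gene alone, without the spread shared over genes, none of the 10 was called (lowest adjusted p 0.067, for Sdf2l1), and 8 of the 10 had an unadjusted p under 0.05. Over all 19936 genes that fit called 4, and 2392 had an unadjusted p under 0.05.

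**Figure D2:**
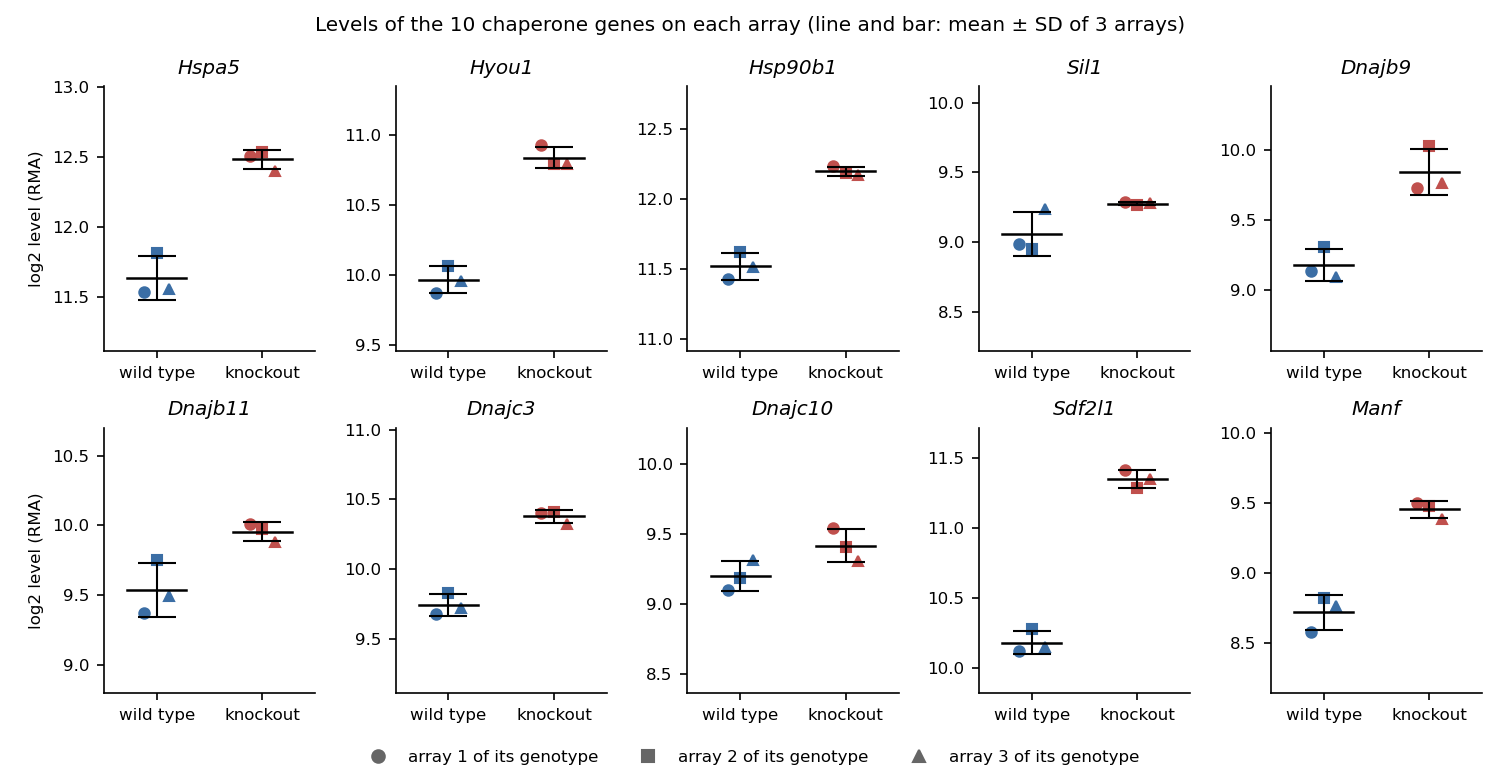
Log2 RMA level of each of the 10 genes on each array, wild type in blue and knockout in red, with symbols for the array number, a line at the mean and bars of 1 SD (n = 3 arrays). All panels span the same range of log2 units around their own mean; the groups are apart in every gene but Dnajc10, narrowly so in Sil1, where the highest wild type array reads 9.24 and the lowest knockout array 9.26.

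Hspa5, the HSP70 of the ER lumen, read 11.54, 11.82 and 11.55 on the wild type arrays and 12.51, 12.54 and 12.41 on the knockout arrays. The lowest knockout array lay well above wild type array 2, the highest of its group. The change was 0.85 ± 0.087 (adjusted p = 0.0064), a 1.80-fold rise with a 95% interval of 1.57 to 2.07. Among all genes this was rank 39 by size of rise.

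Hyou1 encodes GRP170, a large relative of HSP70 that acts as exchange factor of BiP and holds unfolded proteins itself. It read 9.88, 10.07 and 9.96 in wild type and 10.93, 10.80 and 10.79 in the knockout, so the groups stood apart by far more than either one spread. It rose by 0.87 ± 0.073 (adjusted p = 0.0026), or 1.83-fold with an interval of 1.63 to 2.06.

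Sil1, the other exchange factor of BiP, did not follow Hyou1 in size. Its wild type arrays read 8.99, 8.95 and 9.24 and its knockout arrays 9.29, 9.26 and 9.28. The knockout arrays lay within a narrow band just above wild type array 3. The difference of 0.22 ± 0.083 was not called (adjusted p = 0.30), and its 95% interval ran from 0.028 to 0.41.

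Hsp90b1, the HSP90 chaperone GRP94, read 11.42, 11.62 and 11.51 in wild type and 12.24, 12.19 and 12.17 in the knockout. Both groups were tight, with SDs of 0.097 and 0.034. The rise was 0.68 ± 0.068 (adjusted p = 0.0064), or 1.60-fold with an interval of 1.44 to 1.78.

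Among the J proteins of the ER lumen, Dnajc3 and Dnajb9 were called and Dnajb11 and Dnajc10 were not. They were not tested against each other. Dnajc3, also known as p58IPK, a J protein that presents unfolded substrates to BiP, read 9.68, 9.83 and 9.73 in wild type and 10.40, 10.41 and 10.32 in the knockout. It rose by 0.63 ± 0.065 (adjusted p = 0.0064), with SDs of 0.078 and 0.047 around the group means.

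Dnajb9 (ERdj4), which hands substrates to degradation and helps BiP to silence IRE1, read 9.14, 9.31 and 9.09 in wild type and 9.73, 10.03 and 9.77 in the knockout. Knockout array 2 stood above the other knockout arrays, which gave Dnajb9 the widest knockout spread of the 10 (SD 0.16). The rise of 0.66 ± 0.097 was called (adjusted p = 0.017), but not without wild type array 1 (0.64, adjusted p = 0.073) or knockout array 1 (0.72, adjusted p = 0.053).

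Dnajb11 (ERdj3), an abundant soluble J protein that is also secreted with its substrates, read 9.37, 9.75 and 9.49 in wild type and 10.01, 9.98 and 9.88 in the knockout. The groups did not overlap, but wild type array 2 lay close to the lowest knockout array. The difference of 0.42 ± 0.098 was not called (adjusted p = 0.094), with an interval of 0.19 to 0.64. It was called without wild type array 2, at 0.52 (adjusted p = 0.048).

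Dnajc10 (ERdj5), a J protein with thioredoxin domains that reduces disulfides of proteins bound for degradation, read 9.10, 9.19 and 9.32 in wild type and 9.54, 9.41 and 9.31 in the knockout. It was the only one of the 10 whose groups overlapped, through wild type array 3 and knockout array 3. The difference of 0.22 ± 0.083 was not called (adjusted p = 0.31), and the interval ran from 0.026 to 0.41.

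Sdf2l1, which forms a complex with Dnajb11 and keeps BiP substrates soluble, changed most. It read 10.12, 10.28 and 10.15 in wild type and 11.42, 11.29 and 11.36 in the knockout, more than 1 log2 unit apart between the closest arrays of the groups. The rise was 1.17 ± 0.069 (adjusted p = 0.00045), or 2.25-fold with an interval of 2.02 to 2.51, rank 16 of all genes by size and rank 4 by p.

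Manf, a secreted protein that binds the nucleotide domain of BiP and slows its nucleotide exchange, read 8.58, 8.82 and 8.76 in wild type and 9.50, 9.48 and 9.39 in the knockout. It rose by 0.74 ± 0.077 (adjusted p = 0.0064), or 1.66-fold with an interval of 1.47 to 1.88. Sdf2l1 and Manf thus rose along with BiP, while the call was missed by 1 of 2 exchange factors and 2 of 4 J proteins.

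Each gene was then set against BiP itself, by subtracting the log2 value of Hspa5 on the same array, which asks whether a gene changed by another amount than Hspa5. Hspa5 being among the genes that rose most, 99.6% of all genes were called in that fit, which gave every gene the same SE of 0.15. Of the other 9 genes, 4 were called. With nearly all genes called, the adjustment over all genes barely raises a p-value, so the adjusted p of this fit are close to unadjusted ones. No adjustment over the 9 genes alone was made. Sdf2l1 rose by 0.32 more than Hspa5 (interval 0.028 to 0.62, adjusted p = 0.032), and the knockout arrays stood 0.36, 0.21 and 0.40 above the wild type mean of that difference. Dnajb11 changed by 0.43 less (interval of the difference -0.73 to -0.14, adjusted p = 0.0043), Sil1 by 0.63 less (-0.93 to -0.33, adjusted p = 3.1e-05) and Dnajc10 by 0.63 less (-0.93 to -0.34, adjusted p = 3.0e-05). Sdf2l1 was not called without knockout array 1 or knockout array 3. Hyou1 stayed closest to Hspa5, at a difference of 0.024 (-0.27 to 0.32). The differences of Manf (-0.11), Hsp90b1 (-0.17), Dnajb9 (-0.18) and Dnajc3 (-0.21) were not called. Taken with the SD of each gene alone, a choice made after seeing the data, Hsp90b1 (adjusted p = 0.042) and Dnajc3 (adjusted p = 0.015) also differed from Hspa5, as they did without wild type array 2. The evidence for Sil1 (-1.09 to -0.17, adjusted p = 0.021) and Dnajc10 (-0.97 to -0.29, adjusted p = 0.0094) was much weaker in that fit. Sdf2l1 (adjusted p = 0.014) and Dnajb11 (adjusted p = 0.0036) had somewhat smaller adjusted p there. The very small p of Sil1 and Dnajc10 thus rest on the SE shared by all genes. On the arrays alone, the exact permutation p was 0.1, the smallest possible, for 7 of the 9 differences, 0.2 for Dnajb9 and 0.7 for Hyou1.

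Within a genotype, several of the genes deviated the same way on an array. Of the 3 wild type arrays, array 2 was the highest in 8 of the 10 genes, all but Sil1 and Dnajc10, against 27.9% of all genes that were highest on it. Wild type array 1 was the lowest in 8, against 29.0% of all genes. The mean deviation of the 10 genes from their wild type means was -0.094, 0.088 and 0.0054 on the 3 wild type arrays, with median deviations of all genes between -0.015 and 0.0073. Dnajb11 and Hspa5 shared this pattern most visibly: their wild type deviations were -0.17, 0.21 and -0.047 for Dnajb11 and -0.098, 0.18 and -0.081 for Hspa5. The Dnajb11 minus Hspa5 difference spread less than Dnajb11 itself, at -0.068, 0.034 and 0.034 on the wild type arrays and -0.40, -0.46 and -0.43 on the knockout arrays relative to the wild type mean. Among knockout arrays, array 1 was the highest in 7 genes, against 30.5% of all genes, and array 3 the lowest in 7, against 33.1%. The mean deviations there were 0.037, 0.017 and -0.053, small beside the median change of 0.67.

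**Figure D3:**
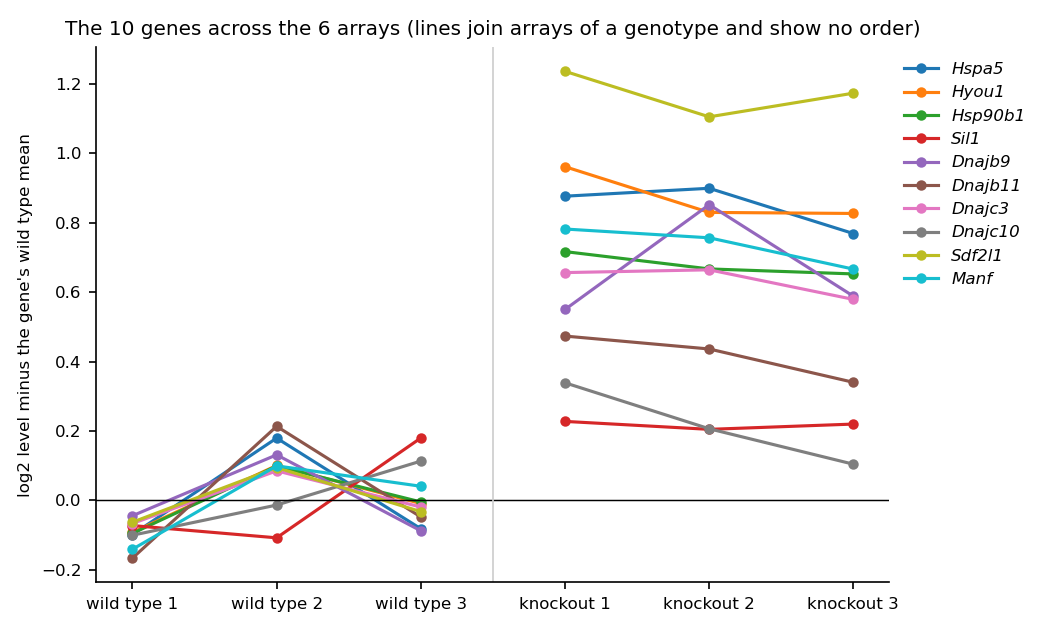
Log2 level of each of the 10 genes on each array minus the mean of that gene over the 3 wild type arrays; lines join arrays of one genotype to let a gene be followed and show no order. Wild type array 2 is the highest wild type array for 8 genes, Sdf2l1 lies above all others on every knockout array, and Sil1, Dnajc10 and Dnajb11 lie lowest there.

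The ER genes were compared with relatives in 10 pairs: proteins of the same kind in another compartment, paralogs, and for Hspa5 also Hspa13, a more distant HSP70 of the ER. Hspa5 changed by 0.85, whereas the cytosolic HSP70 gene Hspa8 differed by -0.11, the mitochondrial Hspa9 by 0.10 and Hspa13 by 0.38, none of them called. The change of Hsp90b1 stood against -0.25 for the cytosolic Hsp90aa1 and -0.0087 for the mitochondrial Trap1. That of Hyou1 stood against -0.14 for Hsph1 and -0.066 for Hspa4, the cytosolic large HSP70 genes. Sdf2l1 rose while its paralog Sdf2 differed by 0.056, and Manf rose while its paralog Cdnf differed by 0.15. The mean level of Cdnf over the arrays was 5.22, below the median of all genes (6.66), and that of Manf was 9.09. This pair therefore does not compare 2 genes of like level. In 9 of these 10 pairs the within-array difference between the chaperone gene and its relative was larger on every knockout array than on every wild type array. The same held for 87.5% of the pairs that these 6 chaperone genes form with any other gene, so the count says nothing particular about the relatives. The exact permutation p was 0.1 for each of these 9, the smallest possible, and 0.11 after Benjamini-Hochberg adjustment over the 10 pairs, so this design cannot pass the threshold. The pair of Sil1 and Hspbp1, a cytosolic exchange factor, overlapped, at 0.22 against -0.00039 (exact permutation p = 0.4).

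**Figure D4:**
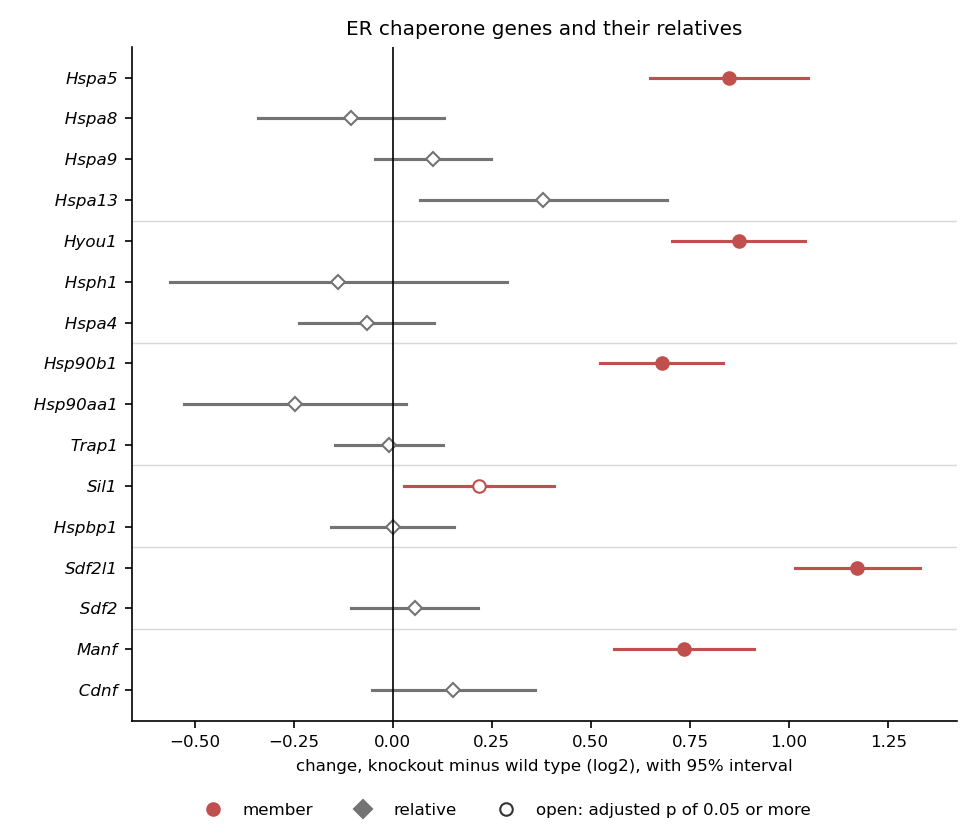
Change in the knockout (log2) with its 95% interval from limma for 6 of the chaperone genes (red circles) and, under each, its relatives (grey diamonds), with open symbols for an adjusted p of 0.05 or more. The intervals of Hspa5, Hyou1, Hsp90b1, Sdf2l1 and Manf lie at 0.52 or above, and those of their relatives include 0 except that of Hspa13.

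A wider list of related ER chaperone genes had 17 measured genes (Kdelr2 was not analysed here). Of these 3 rose and 0 fell, and the median was 0.13. By unadjusted p under 0.05 there were 6. Over all genes 0.918% were called higher, 13.3% had an unadjusted p under 0.05 and the median was 0.019. Creld2, an ER protein induced by stress whose role is less defined, read 0.99 ± 0.10 (adjusted p = 0.0064), and Kdelr3, a receptor that retrieves escaped ER proteins such as BiP and GRP94 from the Golgi, 0.88 ± 0.095 (adjusted p = 0.0065). Ficd, the enzyme that switches BiP off and on by adding and removing AMP, rose by 0.38 ± 0.071 (adjusted p = 0.041), a call lost with each of the 6 arrays left out (adjusted p up to 0.14). The uncalled genes with the smallest p were Hspa13 (0.38 ± 0.14, adjusted p = 0.27) and Sec63 (0.18 ± 0.071, adjusted p = 0.31), the J protein of the translocon. None of the 7 J proteins of this list, Sec63 included, was called by limma, with changes of 0.011 to 0.18 and 1 unadjusted p under 0.05.

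Outside the ER, 1 of 31 measured HSP70, HSP90, J protein, other chaperone and cochaperone genes rose and 0 fell. The median was -0.00039, and 5 genes had an unadjusted p under 0.05, a share near the 13.3% of all genes. It was Grpel1, the exchange factor of mitochondrial HSP70 (0.41 ± 0.057, adjusted p = 0.014), a call that ended when array 1 or array 2 of either genotype was left out (adjusted p up to 0.074). Hspa4l (-0.29 ± 0.073, adjusted p = 0.11) and Bag3 (0.24 ± 0.084, adjusted p = 0.25) came next.

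Among 21 sensors, transcription factors and known targets of the ER stress response, 12 rose and 0 fell, and 18 had an unadjusted p under 0.05. Their median was 0.50, against 0.019 over all genes, of which 0.918% were called higher and 13.3% had an unadjusted p under 0.05. The protein folding genes Pdia6 (0.94), Ero1b (0.73), Pdia4 (0.72), P4hb (0.57) and Calr (0.39) rose. So did Syvn1 (0.77) and Herpud1 (0.73) of ER-associated degradation, and the translocon genes Serp1 (0.69) and Sec61b (0.50). The transcription factor genes Ddit3 (0.79), Atf4 (0.54) and Atf6 (0.46) rose too. Of the 12, Ddit3, Syvn1, Pdia4, Pdia6 and Serp1 stayed called with each array left out. Atf4 and Sec61b lost the call without knockout array 1, and P4hb without it or wild type array 2 (adjusted p up to 0.054). Atf6, Herpud1 and Ero1b lost it when array 1 or array 2 of either genotype was left out, and Calr without these or knockout array 3 (adjusted p up to 0.084). The uncalled genes with the smallest p were Ero1a (0.50 ± 0.10, adjusted p = 0.055) and Edem1 (0.34 ± 0.072, adjusted p = 0.065). Earlier results of these data were known when these lists were made, so their counts are a description.

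**Figure D5:**
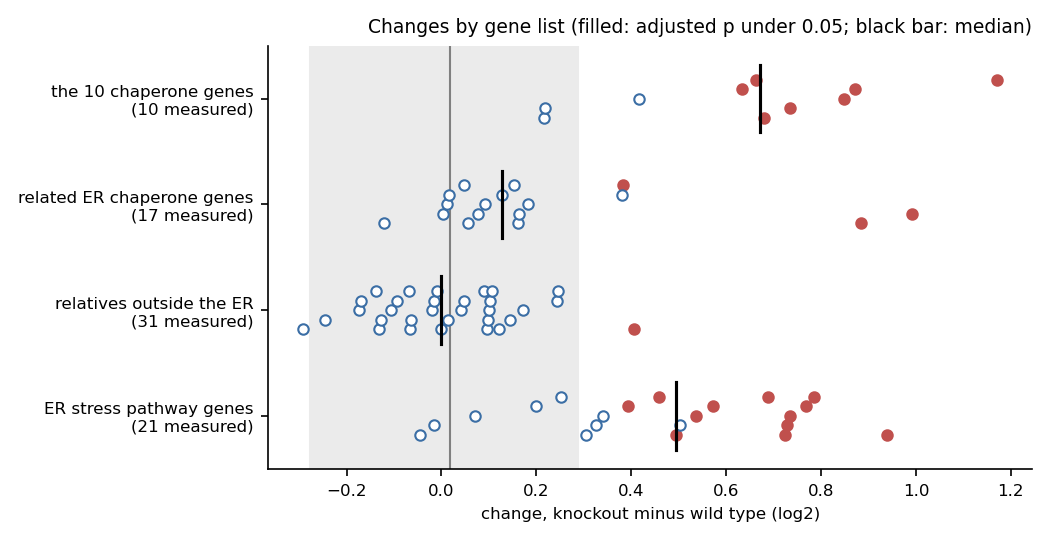
Change in the knockout (log2) of every measured gene of 4 lists, filled red where called and open blue where not, with a black bar at the median of the list; the grey line is the median of all 19936 genes and the grey band spans the central 95% of them, -0.28 to 0.29. The medians are 0.67 for the 10 chaperone genes, 0.13 for related ER chaperone genes, -0.00039 for relatives outside the ER and 0.50 for ER stress pathway genes.

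The promoter motifs were also set against the changes of all genes with a window in the table. Of 15614 such genes, 0.999% were called higher. An ERSE was present for 21 of them, of which 10 were called higher and none lower, with a median change of 0.39. The 3 chaperone genes aside, 7 of 18 were called: Derl3, Creld2, Pdia6, Syvn1, Ero1b, Zfp57 and Calr. Creld2, Pdia6, Syvn1, Ero1b and Calr also stand in the lists above, so their calls are not further evidence. Derl3, a Derlin of ER-associated degradation (2.49 ± 0.17, adjusted p = 0.0013), and Zfp57, a zinc finger gene (0.56 ± 0.057, adjusted p = 0.0064), were named after their values were seen. ERSE-II was present for 9 genes, of which Herpud1 alone was called, and the UPRE core for 143, of which 11 were called higher and 1 lower. A match describes letters in a window and not bound factors, and Dnajb9 and Sdf2l1 were called without one.

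The genes whose profiles over the 6 arrays lay nearest to each of the 10 were found by the Euclidean distance between log2 profiles centred on their own mean, over 18622 genes without predicted ones. Nearest to Hspa5 were Hyou1 (distance 0.16), Creb3l2, which encodes an ER stress transducer (0.19), and Manf (0.21). Nearest to Hyou1 were Pdia6 (0.12), Hspa5 (0.16) and the transcription factor gene Atf5 (0.18). Hsp90b1 and Dnajc3 were each other's nearest gene, at 0.085. Slc35b1, which encodes a carrier that brings ATP into the ER, came second for Hsp90b1 (0.11) and first for Manf (0.096). It rose by 0.72 ± 0.068 (adjusted p = 0.0055).

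For Hsp90b1, Manf (0.11) took the third place, and Dnajc3 was followed by Hs3st3b1, a heparan sulfate enzyme (0.11), and the Golgi SNARE gene Gosr2 (0.15). Manf was followed by Hsp90b1 (0.11) and Serp1 (0.13). Dnajb9 lay nearest to Creb3l2 (0.14), Syvn1 (0.15) and Dnajc3 (0.23). Sdf2l1 had only 1 gene within a distance of 0.3, C1qtnf1, a secreted C1q-related protein (0.18), which rose by 1.08 ± 0.059 (adjusted p = 0.00034), with Creld2 and Pdia6 next (0.30 and 0.31). Dnajb11 lay nearest to the transcription factor gene Atf3 (0.13), Dpagt1, the first enzyme of N-glycan assembly (0.15), and Magt1, a subunit of the oligosaccharyltransferase (0.15).

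Sil1 and Dnajc10 had small changes and so had many near neighbours, 3709 and 3110 genes within 0.3. The nearest were Olfr608, Rab27b and Cited4 for Sil1 and Vmn1r185, Pdcl and Ssr4 for Dnajc10, and none of these was called. Among the 30 places so filled, 8 went to one of the 10 chaperone genes. These distances reflect the size of a change as much as its shape over 6 arrays that share one contrast, and they are given as a description.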

How the data were processed

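Total RNA of colon epithelium was hybridised on 6 Affymetrix arrays, 3 per genotype. The authors deposited log2 values from RMA, per the submitters' processing notes, a method that corrects background, normalizes between arrays and summarises probes. Its software version and the probe set definition are not stated there. These values were used without renormalizing. The annotation gave 1 gene to 21789 of the 35556 probe sets, several to 1621 and none to 12146, and RefSeq's gene table for GRCm38.p6 served to update symbols.

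The test was limma (version 3.58.1, R 4.3.3) over 19936 genes, two-sided, with Benjamini-Hochberg adjustment, and without a filter on dim genes. Changes relative to Hspa5 were fitted the same way after subtraction on each array. Tables and figures were made in Python 3.11.15 with pandas 2.3.3, scipy 1.17.1 and matplotlib 3.10.9. The genotype test was checked on data simulated with independent genes and limma's own moderated SDs. That check shares the assumptions of the test and so cannot test them. The fit relative to Hspa5 was not checked in this way.

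The members and lists were chosen with earlier results of these data known. Named are the members and Sel1l, the called genes and the 2 uncalled ones with the smallest p of each list, and the 3 nearest genes of each member; others are said to be named afterwards. The alternatives were quantile normalization, a replicate block, an intensity trend or robust prior, arrays centred on their medians, a filter on the dimmest 50% of genes, the mean of probe sets, each array left out and a threshold of 1.5-fold. A fit without moderation was chosen after seeing the data, as were the 10 pairs of relatives. Litter and scan batch were not used here. The number of arrays limits the precision.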

Additional observations from a re-analysis of the deposited data

How the results depend on the processing

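The titles give both genotypes the numbers 1 to 3, but nothing says what they share. The correlations of same-numbered arrays' deviations were -0.10, 0.15 and 0.15, and 4 of 6 arrays correlated best with their own number. Those of other pairs ran from -0.26 to 0.12. These values do not settle whether the numbers pair arrays. The main fit left pairing out because the labels do not give it, and a replicate block was run as an alternative. With the replicate block, the same 7 chaperone genes were called, 2 related ER chaperone genes (without Ficd), and 217 genes in all against 325. The count over all genes was 614 with an intensity trend, 598 without the dimmest 50% of genes and 118 at a change of at least 1.5-fold, a threshold that all 7 called chaperone genes passed. Leaving out 1 array gave 69 to 303.

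Dnajb11, at 0.42, was called with an intensity trend (adjusted p = 0.037) and under the filter on dim genes (adjusted p = 0.043), which tests fewer genes, and its change with 1 array omitted was 0.33 to 0.52 (adjusted p 0.048 to 0.26). Dnajb9 ran from 0.57 to 0.73 (adjusted p 0.041 to 0.073). Sel1l ran from -0.87 to -0.67 (adjusted p 0.013 to 0.087). No change of the 10 genes turned its sign under any alternative run.

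With the SD of each gene alone, a limma fit without moderation added after seeing the data, 4 genes in all, 0 of the 10 and 0 of the related genes were called, with 8 of the 10, 4 related and 2392 of all genes at an unadjusted p under 0.05. The changes stay as they were by construction, at 0.85 for Hspa5, 0.68 for Hsp90b1, 0.87 for Hyou1, 0.66 for Dnajb9, 0.63 for Dnajc3, 1.17 for Sdf2l1, 0.74 for Manf and -0.74 for Sel1l, and their adjusted p lay between 0.067 and 0.20. With 3 arrays per genotype the calls thus rest on the spread shared over genes. The arrays show transcripts and not chaperone protein, and the probe sets were not mapped to exons.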
